A study of Mus musculus with 4 samples.

Results

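The Wnt/beta-catenin transducer genes are 10 named genes that carry the canonical Wnt signal from the cell surface to the nucleus: Lrp6, Axin1, Axin2, Apc, Gsk3b, Ctnnb1, Tcf7, Tcf7l1, Tcf7l2 and Lef1. They were taken by symbol from the GENCODE M21 annotation of mm10, where all 10 were found among 21755 protein-coding genes on chromosomes 1 to 19 and X. For each gene, called PHF2 peaks and called H3K9me2 regions were sought within 1 kb of its annotated transcript starts and in its body, from the first to the last annotated base. The study mapped the histone demethylase PHF2 and the histone mark H3K9me2 by ChIP-seq in neural stem cells of wild-type (WT) C57BL/6J mouse embryos at E12.5, cultured with EGF at 20 ng/ml and FGF at 10 ng/ml. Its 4 samples were 1 PHF2 ChIP (Cell signaling antibody D45A2), 1 H3K9me2 ChIP (Abcam antibody ab1220) and 1 input for each. Only the 2 ChIP samples enter here, each through its list of called peaks or regions. Without replicates no difference could be set against a spread between cultures, so the values below are descriptions and carry no test. Lists of peaks hold no read totals, and the depth is unknown.

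In the canonical Wnt pathway, beta-catenin is made all the time and destroyed all the time. A destruction complex built on the scaffolds Axin and APC holds it for the kinase GSK3-beta, whose phosphorylation marks it for the proteasome. A Wnt ligand that joins a Frizzled receptor to the co-receptor LRP6 draws Axin to the membrane, beta-catenin then reaches the nucleus, and TCF/LEF factors, which otherwise sit on their sites with repressors, use it to activate genes. In the embryonic forebrain this pathway is known for its part in patterning and in the balance between division and differentiation of neural progenitors. PHF2 removes methyl groups from lysine 9 of histone H3 and is recruited to promoters through a domain that reads H3K4 methylation. H3K9me2, the dimethylated form of that lysine, is a mark of repressed chromatin.

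PHF2 peaks were called at 6 of the 10 genes, and the genes without one included the gene of beta-catenin itself. The stretches of 250 bases that end just before the transcript start given by RefSeq show how the promoters differed, and are given for the gene with the highest PHF2 score (Gsk3b), for 2 TCF/LEF genes with a peak (Tcf7l1, Tcf7l2) and for 2 genes without a peak (Ctnnb1, Lef1). They are GRCm38 (mm10) sequence from RefSeq on the strand of the gene, 5′ to 3′, and capitals mark CpG dinucleotides.
Gsk3b (chr16:38088751-38089000, plus strand): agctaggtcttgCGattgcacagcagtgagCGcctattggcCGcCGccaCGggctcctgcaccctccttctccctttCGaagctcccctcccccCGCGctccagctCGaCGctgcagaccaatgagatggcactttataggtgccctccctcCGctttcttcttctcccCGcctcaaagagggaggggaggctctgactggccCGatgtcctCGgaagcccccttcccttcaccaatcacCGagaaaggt
Tcf7l1 (chr6:72789255-72789504, minus strand): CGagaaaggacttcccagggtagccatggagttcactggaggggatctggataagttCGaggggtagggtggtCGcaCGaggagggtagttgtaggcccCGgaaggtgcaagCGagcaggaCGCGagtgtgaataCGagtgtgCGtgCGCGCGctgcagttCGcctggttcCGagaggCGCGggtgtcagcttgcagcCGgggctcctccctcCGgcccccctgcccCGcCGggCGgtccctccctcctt
Tcf7l2 (chr19:55741560-55741809, plus strand): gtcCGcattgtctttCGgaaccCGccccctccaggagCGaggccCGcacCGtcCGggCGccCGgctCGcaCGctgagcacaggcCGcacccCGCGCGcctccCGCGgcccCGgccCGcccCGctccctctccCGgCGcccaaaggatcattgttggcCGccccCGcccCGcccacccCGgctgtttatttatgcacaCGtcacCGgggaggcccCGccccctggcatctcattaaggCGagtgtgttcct
Ctnnb1 (chr9:120933150-120933399, plus strand): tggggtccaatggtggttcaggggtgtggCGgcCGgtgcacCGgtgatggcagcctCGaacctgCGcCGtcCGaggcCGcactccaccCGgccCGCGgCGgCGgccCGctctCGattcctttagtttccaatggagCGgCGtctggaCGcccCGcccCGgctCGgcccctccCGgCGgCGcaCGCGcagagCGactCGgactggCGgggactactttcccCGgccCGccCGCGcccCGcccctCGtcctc
Lef1 (chr3:131110047-131110296, plus strand): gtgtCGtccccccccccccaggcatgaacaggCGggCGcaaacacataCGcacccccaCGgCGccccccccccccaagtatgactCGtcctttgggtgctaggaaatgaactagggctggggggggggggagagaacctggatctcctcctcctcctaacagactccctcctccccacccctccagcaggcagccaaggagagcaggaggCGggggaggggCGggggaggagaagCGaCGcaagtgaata
The Gsk3b and Tcf7l1 stretches lay under a PHF2 peak over all 250 bases and held 15 and 22 CpG. The Ctnnb1 stretch held 35 CpG, more than either, and lay under no peak. Tcf7l2 held 30 CpG here, just upstream of its peaks, and Lef1 held 11. The number of CpG in these 250 bases thus did not order the genes by PHF2. The Ctnnb1 stretch precedes the gene's second GENCODE start, the most upstream of a group of 6 starts, and for Tcf7l2 and Lef1 the RefSeq start lies upstream of the first GENCODE start.

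Across the genome, 29.3% of protein-coding genes had a PHF2 peak within 1 kb of a start, against 6 of these 10. Among genes of like CpG content at the first start, the mean share with a peak was 62.0%, as set out below. With only the higher-scoring 50% of all peaks, 14.9% of protein-coding genes had one, and the same count of 6 transducer genes did. For these higher-scoring peaks no share among genes of like CpG content is given here. The 9 peaks at these 6 genes carried scores, the authors' own values per peak, from 177 to 836, in a list of 5992 peaks that ran from 100.02 to 3226 with a median of 229. The highest score per gene had a median of 559.9 over the 6 genes, and 231 over the 6374 protein-coding genes with a peak. The lowest of the 6, 343 at Axin2, was above that second median. No transducer gene had a PHF2 peak in its body farther than 1 kb from every start, which 1.03% of protein-coding genes had.

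**Figure D1:**
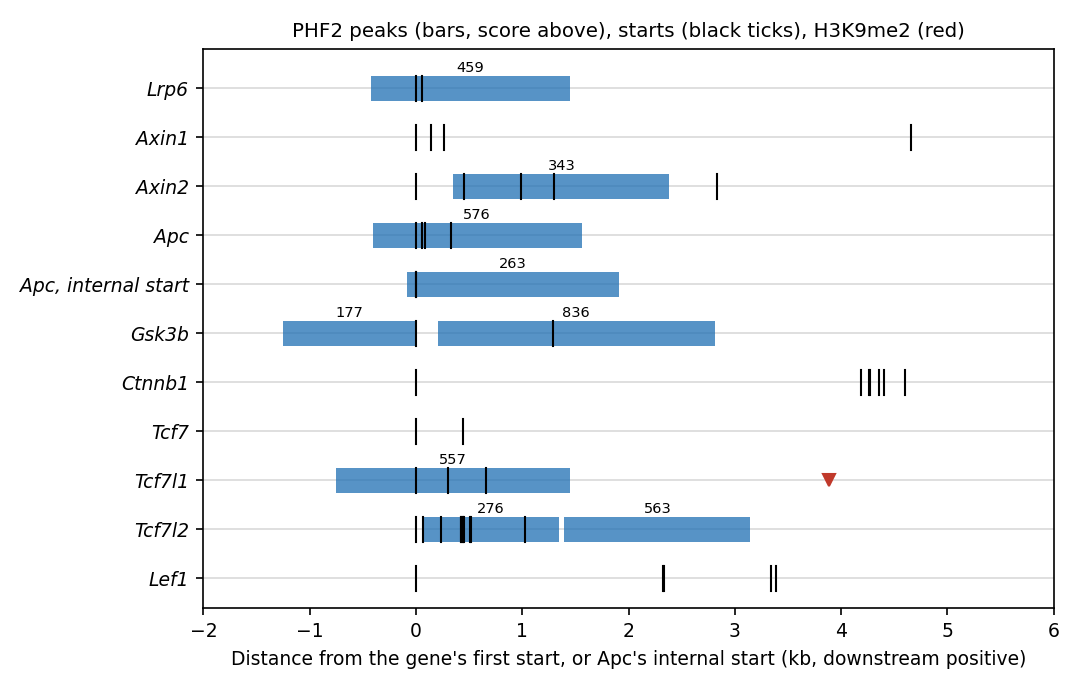
PHF2 peaks (blue bars, with the authors' score above each), annotated transcript starts (black ticks) and H3K9me2 regions (red triangle) by distance in kb from the first start of each gene, or from the internal start of Apc. The 9 peaks lie at 6 genes, mostly on the downstream side of the first start, while Axin1, Ctnnb1, Tcf7 and Lef1 have none.

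Lrp6, which encodes the co-receptor that Wnt ligands bind together with Frizzled, had 1 PHF2 peak (chr6:134565520-134567385, 1866 bp). Its score of 459 ranked 1043 of 5992 peaks, and its length ranked 975. The peak ran from 420 bp upstream to 1445 bp downstream of the first start and covered both coding starts of the gene, 52 bp apart. The other 4 of its 6 annotated starts, all of retained-intron transcripts 25251 to 101957 bp farther in, had no peak. Lrp6 had the most CpG-rich start of the 10 genes, with a CpG observed/expected ratio of 0.976 in the 2001 bp around it. This ratio compares the number of CpG dinucleotides with that expected from the C and G content, and 99.5% of protein-coding genes had a lower one.

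Of the 4 destruction complex genes among the 10, 3 had a PHF2 peak: Gsk3b, Apc and Axin2. All protein-coding genes were divided into 10 classes of equal size by CpG ratio at the first start. In the class of these 3 genes 78.1% had a peak, and in that of Axin1 53.7%. Gsk3b, which encodes the kinase that phosphorylates beta-catenin, had the highest score of all the transducer genes. Its main peak (chr16:38089207-38091812) scored 836 and had a length of 2606 bp, which ranked 283 by score and 272 by length in the whole list. It began 206 bp downstream of the first start and contained a second coding start 1287 bp into the gene. A weaker peak (chr16:38087750-38089003, score 177, rank 3994) ended 2 bp past the first start, so that the 2 peaks left 203 bp between them just behind it. The 250 bases of Gsk3b shown above lie under this weaker peak. The 3 other starts of Gsk3b, 54330 to 119037 bp into the gene, had none.

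Apc, the tumour suppressor gene whose product is the second scaffold of the complex, had a PHF2 peak at each of 2 separate promoters. At the first start the peak scored 576 (chr18:34220517-34222484, 1968 bp, rank 692) and contained 4 starts. The other peak scored 263 (chr18:34247612-34249604, 1993 bp, rank 2497) and lay at an internal coding start 26774 bp downstream. Its length was close to that of the first peak and its score lower. The internal peak was poor in CpG, with an observed/expected ratio of 0.331 and a GC content of 42.3%, where the first had 0.814 and 55.6%. Only 0.634% of all PHF2 peaks had a lower ratio than the internal one, and the median over all peaks was 0.775.

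The Axin paralogs differed in the peak lists. Axin2, the scaffold gene that is also a widely used target gene of the pathway, had 1 peak (chr11:108920697-108922734, 2038 bp, score 343, rank 1724). The peak did not reach the first start: it began 348 bp downstream of it, ran to 2385 bp and contained the 3 coding starts at 451, 987 and 1299 bp. Another coding start, 2832 bp into the gene, lay 447 bp beyond its end. By length the peak stood higher (rank 717) than by score. Axin1, which encodes the constitutive scaffold, had no PHF2 peak within 5 kb of any of its 5 starts, and the nearest peak lay 68.7 kb from its first start. The CpG ratio at the first start was 0.831 for Axin2 and 0.651 for Axin1.

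Ctnnb1, which encodes beta-catenin, had no PHF2 peak within 5 kb of any of its 15 distinct starts, and none in its body of 31.3 kb. The nearest called peak lay 357 kb from its first start. Among the 15381 protein-coding genes without a peak, 25.6% lay farther from one, and the median distance was 121 kb. The first start, used by 1 transcript, had a CpG ratio of 0.437. The second, 4184 bp downstream, had a ratio of 0.892 with 182 CpG in its window, and the 5 starts behind it reached 0.915. Windows as CpG-rich as that fall within the range of the most CpG-rich 10% of protein-coding genes by first start, of which 78.1% had a PHF2 peak. Absence from the list shows only that no peak was called.

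Of the TCF/LEF factor genes, which encode the DNA-binding partners of beta-catenin, Tcf7l1 and Tcf7l2 had PHF2 peaks and Tcf7 and Lef1 had none. Tcf7l1, best known as a repressor of Wnt targets, had 1 peak (chr6:72787801-72790006, 2206 bp) with a score of 557, rank 747. It ran from 752 bp upstream to 1453 bp downstream of the first start and contained all 3 coding starts. The 2 noncoding starts, 117850 and 158984 bp into the gene, had no peak. Tcf7l2 had 2 peaks that lay 50 bp apart. The first (chr19:55741884-55743166, 1283 bp) scored 276 and contained 10 of the gene's 17 distinct starts, beginning 64 bp downstream of the most upstream one. The second (chr19:55743217-55744967, 1751 bp) scored 563, contained no start and lay wholly in intronic sequence, from 1397 to 3147 bp behind the first start. It was also poorer in CpG (observed/expected 0.542, with 5.29% of all peaks lower) than the first (0.970). At Tcf7l2 the higher-scoring peak thus contained no start, though its edge lay within 1 kb of one. The internal starts of Tcf7l2, 151532 to 156733 bp into the gene, had no peak.

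Tcf7 and Lef1, which encode the factors first described in lymphocytes, had no PHF2 peak within 5 kb of a start. For Tcf7, with 2 starts 443 bp apart, the nearest peak lay 50.1 kb from the first start. For Lef1, with 5 distinct starts over 3385 bp, it lay 379.7 kb away, the largest distance of the 10 genes, and 24.5% of protein-coding genes without a peak lay farther from one. Both had CpG-rich starts, with ratios of 0.736 (Tcf7) and 0.694 (Lef1). Tcf7l1 and Tcf7l2, with peaks, had 0.757 and 0.779 at their first starts. Of the family of 4, 2 genes thus had a peak. In their CpG classes, 62.4% of genes (Tcf7, Tcf7l1, Tcf7l2) and 53.7% of genes (Lef1) had a peak. Tcf7, without a peak, and Tcf7l1, with one, differed little in CpG ratio.

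**Figure D2:**
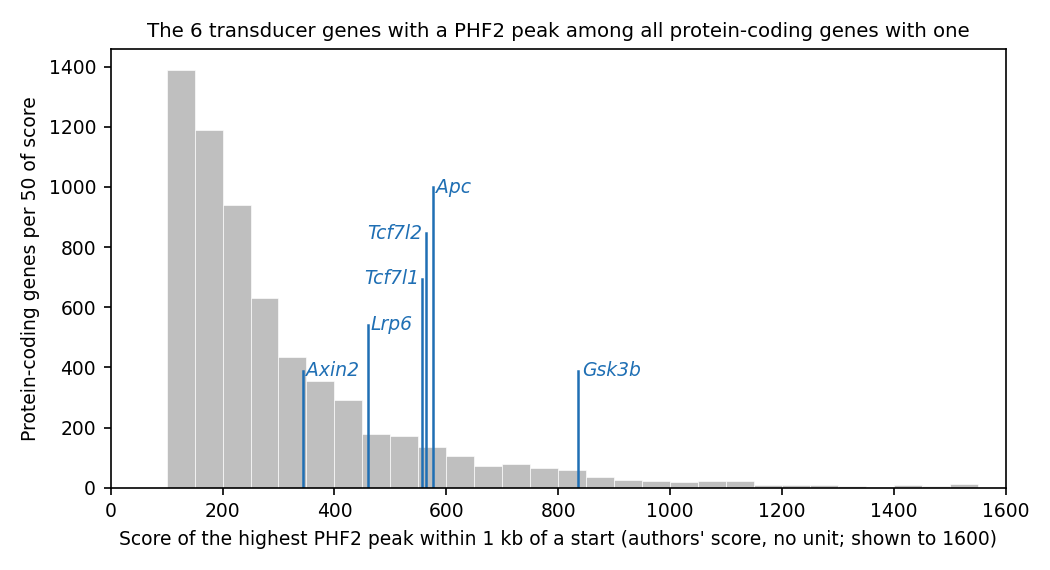
Number of protein-coding genes (grey bars, per 50 of score) by the score of their highest PHF2 peak within 1 kb of a start, with the 6 transducer genes that have a peak drawn as blue lines. Axin2 (343) is the lowest, Lrp6 (459), Tcf7l1 (557), Tcf7l2 (563) and Apc (576) follow, and Gsk3b (836) is the highest. The axis ends at 1600, while the list runs to 3226.

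The order of the highest scores was Gsk3b (836), Apc (576), Tcf7l2 (563), Tcf7l1 (557), Lrp6 (459) and Axin2 (343). With 1 sample there is no spread by which to tell neighbours in this order apart, and the scores of Apc, Tcf7l2 and Tcf7l1 lay close together. Among all 6374 genes with a peak, 4.46% had a higher score than Gsk3b and 28.9% a higher one than Axin2. The genes next to Gsk3b in score were Asap1 and Epb41l4a above it and Ccdc85b and Cep83 below it, all within 0.96. Next to Axin2 were Herpud1 and Ppp1r3c above it and Rpl27 and Rnf146 below it, all within 0.29. Likeness here means only the nearest score in 1 sample.

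The peaks of these genes lay mainly behind the start, as most PHF2 peaks at starts did. Of the 9 peaks, 8 (88.9%) had their centre downstream of the first start, and the weaker Gsk3b peak was the exception, with its centre at -625 bp. Over all 6638 pairs of a protein-coding gene and a peak at its starts, 82.7% had the centre downstream of the first start. Measured from the nearest start of the gene, the shares were 88.9% and 68.2%. Of the 16965 bp under the 9 peaks, 16.7% lay upstream of the gene's first start, 27.5% in annotated exons and 55.8% in introns. Over all pairs these shares were 30.4%, 32.4% and 36.9%. None of the 9 peaks was within 1 kb of a start of another protein-coding gene, which held for 74.3% of all pairs. Apc, Gsk3b and Tcf7l2, that is 3 of 10 genes, had 2 peaks at their starts. Of all protein-coding genes 255 (1.17%) had 2 or more, while 6374 had a peak at all. These 3 genes had 8, 5 and 17 distinct starts, and the part of the number of starts was not tested. The 2 peaks of Apc belonged to starts far apart, and those of Gsk3b and Tcf7l2 lay side by side.

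Of the 10 genes, those with a PHF2 peak had higher CpG ratios at the first start than those without one. Over all protein-coding genes the direction was the same, with median ratios of 0.689 with a peak and 0.323 without. The 6 genes with a peak had ratios from 0.757 (Tcf7l1) to 0.976 (Lrp6), and the 4 without had ratios from 0.437 (Ctnnb1) to 0.736 (Tcf7), so the ranges did not overlap. This no longer held when other starts were counted, because the second start of Ctnnb1, at 0.892, was richer in CpG than the first starts of 5 of the 6 genes with a peak. The median ratio of the 10 genes was 0.768, against 0.478 over all protein-coding genes. All genes were divided into 10 classes of equal size by this ratio. The share with a PHF2 peak was 1.01% in the lowest class and 78.1% in the highest. It was 53.7% in class 8, with Axin1 and Lef1, and 62.4% in class 9, with Tcf7, Tcf7l1 and Tcf7l2. Class 9 thus held both Tcf7, without a peak, and Tcf7l1, with one. Averaged over the classes in which the 10 genes fell, that share was 62.0%, or 6.20 genes of 10, beside the 6 observed. This average places Ctnnb1 by its first start, in a class with a share of 12.9%. Its second start has a ratio in the range of the highest class. By first starts, the number of transducer genes with a peak was therefore close to the share among genes of like CpG content. Their scores stood higher than the medians of genes with a peak in the upper 3 classes, which were 224, 240.3 and 302.

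**Figure D3:**
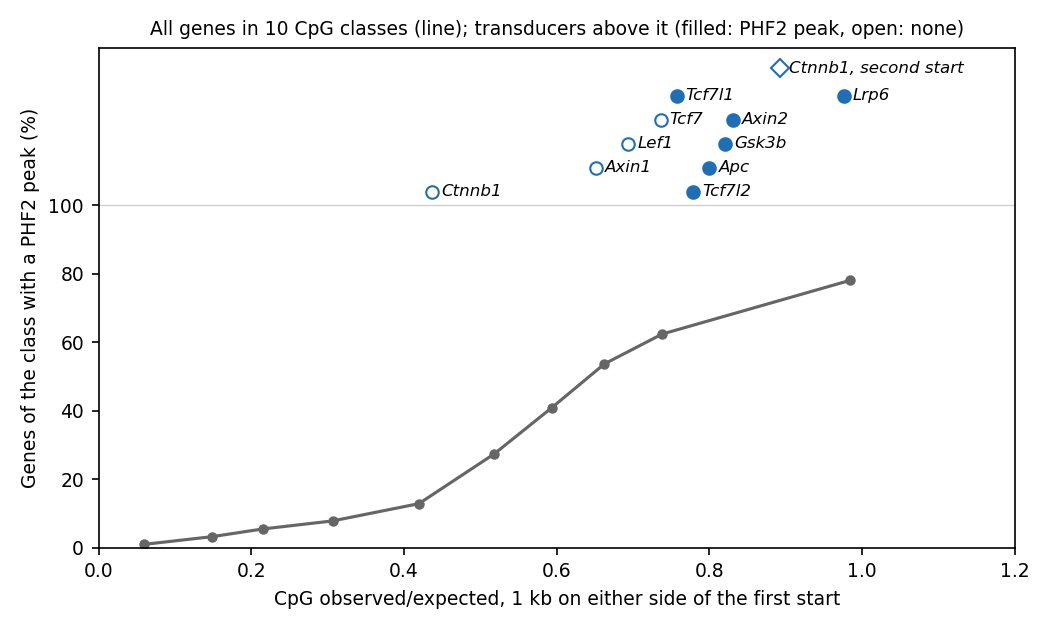
Share of protein-coding genes with a PHF2 peak (grey line, percent, at the middle of each class's range) in 10 classes by CpG observed/expected around the first start, with the 10 transducer genes placed above the line at their own ratio, at arbitrary heights (filled, with a peak; open, without). The filled symbols lie at 0.757 and above and the open circles at 0.736 and below, while the open diamond shows the second start of Ctnnb1 at 0.892.

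The short sequence CTTTGAT, a core of the TCF/LEF site, was sought on both strands in the 2001 bp around the first start. It was found at 3 of the 10 genes, and at 23.6% of all protein-coding genes. Axin2 had 2 matches, 81 and 886 bp downstream of the start, of which the second lay under its PHF2 peak. Lrp6 had 1 match at -387 bp, under its peak, and Tcf7 had 1 match at -357 bp and no peak. Apc, Gsk3b, Tcf7l1 and Tcf7l2 had peaks and no match in these windows. Under the PHF2 peaks themselves, which reach beyond the windows, 4 of the 9 peaks held a match: those of Lrp6 and Axin2, the internal peak of Apc and the second peak of Tcf7l2. Of all PHF2 peaks 11.6% held one, but these 9 peaks were 1254 to 2606 bp long, where the median over all peaks was 1306 bp, and the part of length in this difference was not tested. A match is a match of letters and not a measured site.

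H3K9me2 regions were called at none of the starts of the 10 genes within 1 kb, and 3.49% of protein-coding genes had one there. In the gene bodies, 6 regions lay in 3 genes, Tcf7l1 (3 regions), Gsk3b (2) and Apc (1), all in introns. Of all protein-coding genes, 24.2% had a region in the body. Long genes more often have one, and among the 6503 genes of the same range of length as the transducer genes, 30.4 to 192 kb, the share was 47.0%, against 3 of 10 here. Over their joint length of 997 kb the 10 genes held 6.02 regions per Mb. All gene bodies together held 13.0 per Mb, and those of that range of length 11.5 per Mb. At the first of these densities the 10 bodies would hold 13.0 regions.

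The regions were short, as most in the list were: of the 36111 regions analysed, 55.6% were 73 bp long, the shortest length in the list, and none was longer than 367 bp. The region nearest to a promoter, in Tcf7l1, and the first region of Gsk3b are shown because they lie in genes that also have PHF2 peaks. Both are GRCm38 (mm10) sequence from RefSeq, on the strand of the gene, with capitals for CpG.
Tcf7l1 (chr6:72785317-72785426, minus strand): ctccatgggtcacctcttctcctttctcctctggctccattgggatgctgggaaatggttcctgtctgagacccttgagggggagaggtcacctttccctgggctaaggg
Gsk3b (chr16:38139715-38139787, plus strand): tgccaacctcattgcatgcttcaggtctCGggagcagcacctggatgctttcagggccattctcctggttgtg
The Tcf7l1 region has 110 bp and no CpG, and its centre lies 3883 bp behind the first start and 2430 bp from the edge of the PHF2 peak. The positions of the other regions are likewise those of their centres. The Gsk3b region has 73 bp and 1 CpG, 50.8 kb behind the first start. The other 2 regions of Tcf7l1, of 73 bp each, lay 88.9 and 101 kb behind its first start. The second region of Gsk3b (112 bp, chr16:38228824-38228935) lay 139.9 kb behind.

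The single region of Apc (77 bp) lay 22.2 kb behind the first start, between the 2 PHF2 peaks and 4.46 kb from the internal one. It lay wholly in sequence masked as repeat in the reference, with a GC content of 20.8%. Of the bases of all 6 regions, 28.6% were masked as repeat, against 22.3% over all regions analysed. Without the Apc region, the share over the other 5 was 16.1%, below that of all regions. The 3 genes with a region in the body were among the 6 with a PHF2 peak, and the 4 genes without a peak had no region either. Those 4 genes were 30.6 to 114 kb long and gave 233 kb of body, where the 6 with a peak gave 764 kb, so length and PHF2 cannot be told apart here. Measured to its nearest edge, the nearest H3K9me2 region lay at a median of 49.7 kb from the first start of the 10 genes, and of 37.7 kb over all genes. Lrp6 had the widest gap, 150.3 kb, and Tcf7l1 the narrowest, 3.83 kb.

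**Figure D4:**
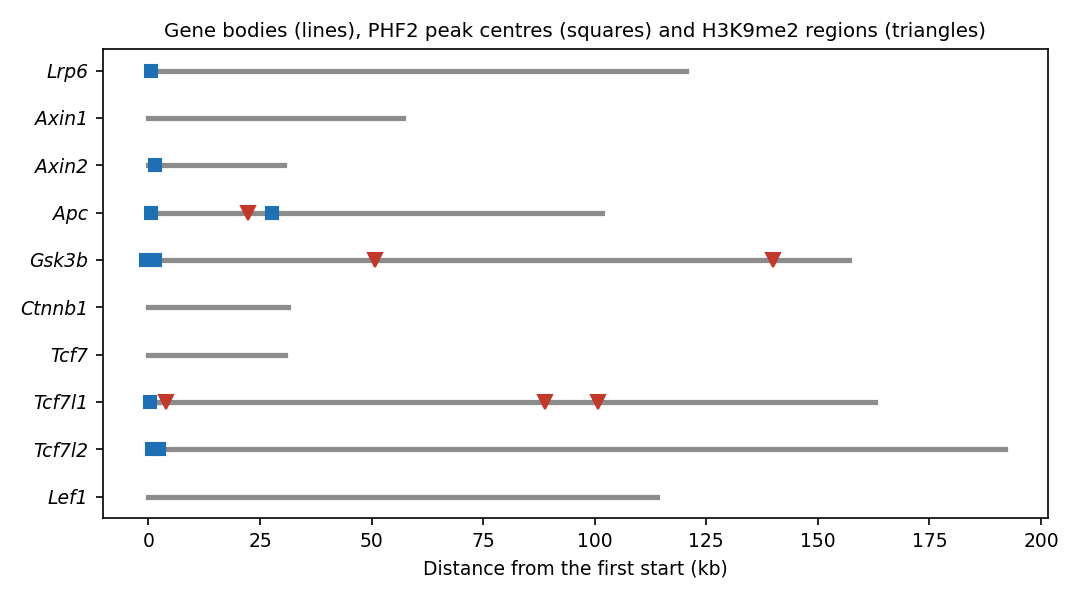
Bodies of the 10 genes (grey lines) by distance in kb from the first start, with the centres of PHF2 peaks (blue squares) and H3K9me2 regions (red triangles). All PHF2 peaks reach to within 1 kb of a start, at the front of the gene or at the internal start of Apc. The centre of the second Tcf7l2 peak lies 1247 bp from the nearest start. The H3K9me2 regions of Tcf7l1 and Gsk3b lie farther in than the PHF2 peaks of these genes, and that of Apc lies between its 2 peaks.

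The rest of the Wnt pathway was described with a list of 87 other genes in 6 roles. PHF2 peaks lay at 37 of them (42.5%), with a median score of 263. That share was above the 29.3% of all protein-coding genes and slightly below the mean share of 45.2% in the CpG classes of these 87 genes. PHF2 peaks were less frequent among ligands (15.8%) and among secretion and surface modulators (9.52%) than in the other roles. Those ran from 54.5% (nuclear cofactors) to 88.2% (receptors). The receptor genes of the pathway, a list with the Frizzled genes and Lgr4, Lgr5 and Lgr6, had peaks at 15 of 17 (88.2%). Fzd6 and Lgr6 had none. The highest scores were at Fzd1 (1416), Fzd3 (603) and Fzd5 (551.6). The mean share of genes with a peak in the CpG classes of these receptors was 58.5%. Lrp5, the paralog of Lrp6, scored 227, below the 459 of Lrp6.

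The Wnt ligand genes had peaks at 3 of 19 (15.8%, where their CpG classes had a mean share of 39.4%). These were Wnt5a (1242), a ligand best known for noncanonical signalling, Wnt7a (485) and Wnt7b (219), 2 ligands known from the neural tube. Genes of secretion and of surface modulators had 2 of 21 (9.52%, with a mean share of 36.6% in their classes). They were Wls (345), which encodes the carrier that brings Wnt proteins to the surface, and Znrf3 (263), which encodes a ligase that removes Frizzled. Frzb, which encodes a secreted Frizzled-like antagonist, had an H3K9me2 region of 155 bp, 8971 bp behind its first start and within 1 kb of the start of a noncoding transcript, and no PHF2 peak.

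The cytoplasmic partners of the 10 genes had peaks at 8 of 14 (57.1%), led by Csnk1a1 (718.5), the kinase that primes beta-catenin for GSK3, and by the tankyrase genes Tnks2 (529.9) and Tnks (343), whose products target Axin for degradation. Gsk3a, the paralog of Gsk3b, had a weak peak of 132. Btrc, which encodes the ubiquitin ligase subunit that recognises phosphorylated beta-catenin, had both a PHF2 peak (score 221, chr19:45363425-45364685) and an H3K9me2 region (107 bp, chr19:45362668-45362774), apart from each other. Among the nuclear cofactors 6 of 11 had a peak, with the highest scores at the co-repressor genes Tle1 (911.6) and Tle4 (817.8) and at the co-activator gene Bcl9l (355). Among 5 target genes 3 had one, Myc (2571), Ccnd1 (1514) and Nkd1 (155). The mean class shares of these last 3 roles were 45.2%, 48.9% and 50.3%. Frzb and Btrc were the 2 of the 87 genes with an H3K9me2 region at a start, beside 3.49% of all protein-coding genes.

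**Figure D5:**
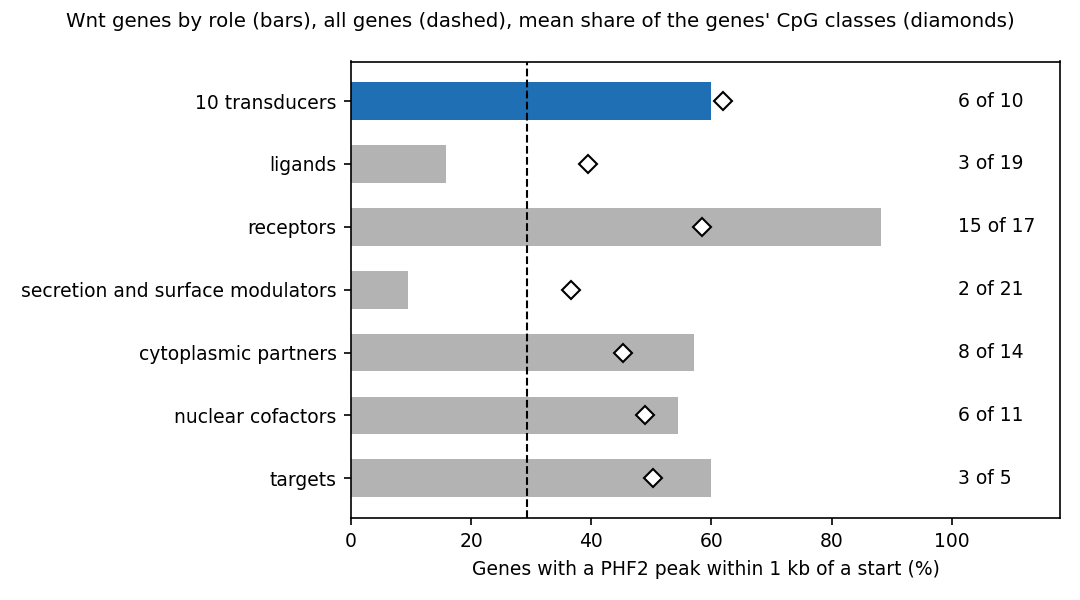
Share of genes with a PHF2 peak within 1 kb of a start (bars, percent) for the 10 transducer genes (blue) and for 6 roles of other Wnt pathway genes (grey), with the counts at the right. The dashed line is the share over all protein-coding genes (29.3%), and the diamonds are the mean shares of the CpG classes in which the genes fall. Receptors (15 of 17) lie above their diamond, and ligands (3 of 19) and surface modulators (2 of 21) below it.

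Marker genes of the labelled cells and of other cell types were looked up in the same way. PHF2 peaks lay at 8 of 10 genes that mark neural stem cells, whose CpG classes had a mean share of 52.0%. They lay at 2 of 6 neuronal marker genes (mean class share 17.7%), at 0 of 6 astrocyte and oligodendrocyte marker genes (8.81%) and at 0 of 4 mesenchymal ones (39.0%), beside the 29.3% of all protein-coding genes. Peaks do not measure expression, so this neither identifies the cells nor shows which transducer genes they express. Differences in score between genes were not tested against the input, GC content or mappability.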

How the data were processed

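Neural stem cells were profiled by ChIP-seq for PHF2 and H3K9me2, with 1 sample and 1 input per target. The authors deposited 1 list of PHF2 peaks, made by MACS run in Galaxy, per the file headers, with a score per peak of a scale that the file does not state, and 1 list of H3K9me2 regions, with a caller that is not given in the sources used here, whose score column holds 0 throughout. The submitters' processing notes list Bowtie2 and mm10. The inputs were not analysed here.

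Both lists were set on GENCODE M21 with Python 3.11.15 and pysam 0.24.0, and the overlap search was tested on simulated data. Coordinates are 1-based on mm10. A peak counted when it overlapped, by at least 1 bp, the gene body or the 1000 bp before and after any annotated start. H3K9me2 regions on scaffolds were left out. CpG observed/expected and GC content came from the GRCm38 sequence of RefSeq. RefSeq promoter entries were matched by symbol for 7 of the 10 genes, all but Axin1, Apc and Lrp6. No test was made, with 1 sample per group.

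The genes, the roles and the marker lists were chosen with earlier results of these data known. The rule named all 10 genes, up to 3 other pathway genes per role with the highest PHF2 score, those with an H3K9me2 region at a start, and the genes next in score to the highest and lowest of the 10. Lrp5 and Gsk3a were added after their values were seen. The alternatives were windows of 500, 2000 and 5000 bp, the 5'-most start alone, starts of coding transcripts, peak centres, higher-scoring peaks, longer regions and bodies without promoter windows.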

Additional observations from a re-analysis of the deposited data

How the results depend on the processing

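The 6 transducer genes kept a PHF2 peak with windows of 500, 2000 and 5000 bp, with the 5'-most start alone, with coding transcripts only, with peak centres and with the higher-scoring 50% of peaks. With the highest-scoring 10% of peaks, 1 of the 10 genes (Gsk3b) and 7 of the 87 other pathway genes had one, because fewer peaks were counted. The share over all protein-coding genes was then 2.84%. With the higher-scoring 50%, 22 of the 87 had one, where 14.9% of all protein-coding genes did. H3K9me2 regions at a start were found at 0 of the 10 genes in 6 alternatives. With windows of 5000 bp they were found at 3 (Apc, Gsk3b and Tcf7l1), where 15.3% of all protein-coding genes had one. The count of 3 genes with a region in the body was the same with longer regions, region centres and bodies without promoter windows. The median of the highest scores per gene, 559.9, was 401 when the peak nearest to the 5'-most start was taken, which selects the lower peaks of Gsk3b and Tcf7l2, and 508 with the 5'-most start alone, which leaves out the higher peak of Tcf7l2. No paired analysis was possible because each group has 1 sample, and no replicate could be left out. The depth of the samples is unknown, so a gene without a called peak cannot be told from one with a signal below the caller's threshold.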
